A study of Mus musculus with 12 samples.

Results

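The 80 genes described here, apart from 2 pseudogenes, encode subunits of the mitochondrial respiratory chain and of ATP synthase. They were taken by symbol: Nduf followed by a, b, c, s or v and a digit for complex I (33 genes), Sdha to Sdhd for complex II (4 genes), every Uqcr symbol for complex III (8 genes), Cox4 to Cox8 for complex IV (17 genes) and every Atp5 symbol for complex V (18 genes). They are 80 of 22180 genes measured, and each was read by its brightest probe set, the group of short array probes that measures a gene. The 2 pseudogene symbols are Uqcrh-ps1 and Atp5c1-ps, which the counts below include in complex III and complex V. A further 9 symbols of these families, among them Uqcr10, Cox6c, Ndufs6 and Ndufb2, lay only on probe sets shared with another gene and were left out. The mean log2 level over all arrays was at least 5 for 73 of the genes and at least 8 for 58.

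RNA was measured on 12 Affymetrix arrays of the mouse NOTCH1 leukemia model, 3 arrays in each of 4 groups. These were GFP-positive colonies, which the labels call partially reprogrammed, GFP-negative colonies, called reprogrammed, established induced pluripotent stem (iPS) cells, and leukemia cells from the spleen. Both kinds of colony and the iPS cells were derived from leukemia cells, and every group carries the mouse genotype R26rtTA;Col1a12lox-4F2A, that is, an inducible cassette of reprogramming factors with the transactivator that drives it. The labels used here give no strain, age or sex and do not say what GFP marks, and the cassette's dose and time of induction are likewise not given. The titles call the arrays biological replicates without naming separate animals or cultures, and all leukemia titles carry the same leukemia number, and the p-values cover the spread among these arrays alone. In bulk RNA, fewer cells of a type and less RNA per cell cannot be told apart.

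The respiratory chain moves electrons from NADH (complex I) and succinate (complex II) through ubiquinone, complex III and cytochrome c to oxygen at complex IV, and complexes I, III and IV pump protons as they do so. Complex V, ATP synthase, lets the protons back through a rotating ring and uses that flow to make ATP. The subunits measured here are all encoded in the nucleus, while a small set of core subunits is encoded in mitochondrial DNA. In mice, pluripotent cells are known to use glycolysis heavily while keeping an active respiratory chain, and several complex IV and complex V subunits exist as alternative isoforms used in different tissues. Of the 13 mitochondrially encoded subunits, 0 had a probe set named in the annotation used here.

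Before the members, the markers of the cells were read. The mean log2 level of 6 T lineage markers was 5.76 to 6.98 in GFP-positive colonies, 5.46 to 6.45 in GFP-negative colonies and 5.70 to 6.14 on the iPS arrays, against 10.8 on each leukemia array. The mean of 7 pluripotency markers was 6.83 to 9.58 in GFP-positive colonies, 6.08 to 9.81 in GFP-negative colonies and 9.48 to 9.56 on the iPS arrays, against 5.19 to 5.58 in leukemia cells. GFP-positive array 3 and GFP-negative array 1 stood apart from the other colony arrays, with pluripotency means of 6.83 and 6.08. The 5 epithelial markers averaged 11.3 to 11.7 in GFP-positive colonies, 8.52 to 12.04 in GFP-negative colonies and 8.85 to 8.90 on the iPS arrays, against 5.53 to 5.72 in leukemia cells. The 7 macrophage and granulocyte markers averaged 6.16 to 7.77, 5.83 to 7.01 and 5.99 to 6.26 in the same 3 groups, against 8.53 to 8.61 in leukemia cells. They did not all move alike: 2, 3 and 3 were called lower than in leukemia cells and 1 was called higher in each group. On GFP-positive array 3 their median was 0.91 above the leukemia mean. The 5 fibroblast markers were at 8.19 to 8.38 in iPS cells, against at most 7.11 on every other array. The single erythroid marker (4.78 to 5.41) and the mean of 6 muscle markers (5.14 to 5.34) were low on every array. These marker levels move with the groups, and their part in the results below was not tested.

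In GFP-positive colonies the respiratory chain genes were mostly lower than in leukemia cells. Of the 80 genes, 36 (45.0%) fell and 0 rose at a Benjamini-Hochberg adjusted p under 0.05 in limma over all genes, against 12.3% called lower and 9.60% called higher among all genes tested. An unadjusted p under 0.05 was reached by 53 of the genes, against 33.5% of all genes. The median log2 difference of the 80 genes was -0.31, against -0.04 over all genes, and 73 of them were below 0, compared with 55.2% of all genes. For 54 of the 80 the 3 GFP-positive arrays all lay below the 3 leukemia arrays, which was so for 23.8% of all genes. Without GFP-positive array 1, leukemia array 1 or leukemia array 2, the number called lower was 20, 19 and 18, and after cyclic loess normalization it was 18. The shares of all genes called lower were then 9.5%, 8.77%, 8.6% and 9.15%.

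GFP-negative colonies showed a difference of the same direction. Here 23 genes fell and 1, Cox8b, rose, with backgrounds of 12% called lower and 9.02% called higher. The median was -0.27, against -0.01 over all genes, and 68 of the 80 differences were below 0, compared with 51.4% of all genes. The arrays did not overlap, with GFP-negative lower, for 46 genes (20.9% of all genes). The count of 23 fell to 15 without GFP-negative array 1, 13 without GFP-negative array 2, 11, 9 and 15 without leukemia arrays 1, 2 and 3, and 15 and 14 without iPS arrays 1 and 2, which share in the estimate of the spread. In these fits 14.2%, 10.1%, 8.91%, 8.54%, 8.6%, 10.6% and 10.7% of all genes, in the same order, were called lower. Both colony comparisons use the same leukemia arrays.

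In the fit of all 4 groups, fewer genes were called in iPS cells against leukemia cells. Here 3 rose and 7 fell, with backgrounds of 12.4% and 11.9%, and the median was -0.08, against -0.03 over all genes. The arrays did not overlap for 18 genes in the higher direction (27.8% of all genes) and 30 in the lower direction (28.7%). The 7 lower calls became 3 and 4 without iPS arrays 1 and 3, and 4 without any 1 leukemia array, with 8.67% to 8.94% of all genes called lower in these fits. The 3 higher calls became 1 without iPS array 2, iPS array 3, leukemia array 2 or leukemia array 3, and 5 without GFP-negative array 2. Of all genes, 8.92% to 9.17%, and 12.2% without GFP-negative array 2, were called higher. Fits of 2 groups alone did not keep the order of the counts. They called 11 higher and 17 lower for iPS minus leukemia (24.5% and 22.9% of all genes). For GFP-positive colonies minus leukemia they called 1 higher and 21 lower (10.6% and 12.1%), and for GFP-negative colonies 0 and 10 (6.15% and 8.73%).

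Against GFP-positive colonies, iPS cells had 19 respiratory chain genes called higher and 0 called lower, with backgrounds of 6.15% and 4.23%. An unadjusted p under 0.05 was reached by 43 of the genes, against 27.2% of all genes. The median difference was 0.25, against 0.01 over all genes, and for 50 of the 80 genes all iPS arrays lay above all GFP-positive arrays (21% of all genes). The count of 19 rested on few arrays: it was 2 and 6 without GFP-positive arrays 1 and 3, 2, 0 and 1 without iPS arrays 1, 2 and 3, and 11, 10 and 11 without leukemia arrays 1, 2 and 3. The share of all genes called higher fell too, from 6.15% to 2.52% and 3.46% without GFP-positive arrays 1 and 3. It was 1.83%, 1.88% and 1.84% without iPS arrays 1, 2 and 3, and 4.04%, 4% and 4.08% without leukemia arrays 1, 2 and 3. Against GFP-negative colonies, 5 genes were called higher in iPS cells and 0 lower, with backgrounds of 2.94% and 1.32%, a median of 0.21 against -0.02 over all genes, and 35 genes at an unadjusted p under 0.05 (19.7% of all genes). Those 5 became 0 without any 1 iPS array, 1 without any 1 leukemia array, and 1, 2 and 10 without GFP-negative arrays 1, 2 and 3. Of all genes, 0.803% to 0.884%, 1.89% to 1.95%, and 2.98%, 2.1% and 4.61% were called higher in these fits.

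Between GFP-negative and GFP-positive colonies 0 of the 80 genes, and 0 (0%) of all genes, were called by limma. An unadjusted p under 0.05 was reached by 7 of the 80, against 6.37% of all genes, and limma with array weights called 2 of the 80 higher and 0 lower, against 1.83% and 4.1% of all genes. The 0 over all genes rested on GFP-negative array 1: without it 251 genes were called higher and 768 lower, of which 0 were among the 80. The median difference was 0.07, against 0.03 over all genes.

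**Figure D1:**
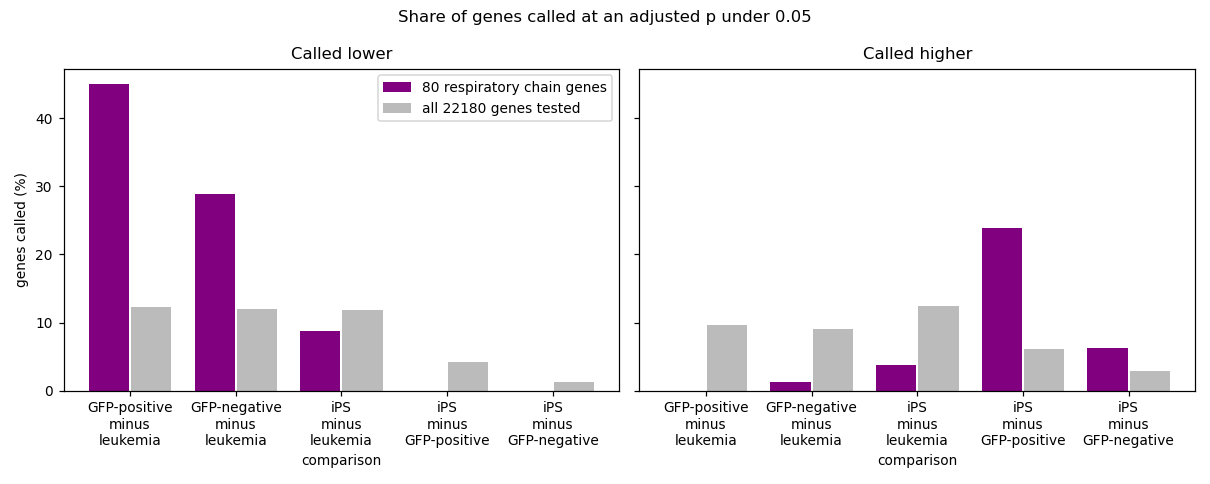
Percentage of the 80 respiratory chain genes (purple) and of all 22180 genes tested (grey) called lower (left) and higher (right) at an adjusted p under 0.05, for 5 comparisons on the horizontal axis. The share called lower was 45.0% of the respiratory chain genes in GFP-positive colonies minus leukemia, against 12.3% of all genes, and the share called higher in iPS minus GFP-positive was 23.8%, against 6.15%.

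Most of the respiratory chain genes are bright. Among the 4841 genes with a mean log2 level of at least 8, a limit chosen after seeing the data, 19.5% were called lower for GFP-positive colonies minus leukemia, against 32 of 58 respiratory chain genes (55.2%). In GFP-negative colonies 18.4% of bright genes were called lower than in leukemia cells, against 23 of 58 (39.7%). For iPS cells minus GFP-positive colonies 14.8% of bright genes were called higher, against 22 of 58 (37.9%).

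Per array, the median of the 80 genes relative to the leukemia mean was -0.41, -0.27 and -0.30 in GFP-positive colonies, -0.30, -0.31 and -0.16 in GFP-negative colonies and -0.08, -0.04 and -0.08 on the iPS arrays, against 0.02, 0.03 and -0.05 in leukemia cells. All 6 colony arrays lay below all iPS and leukemia arrays. The median SD of these genes within a group was 0.16 in GFP-positive and 0.16 in GFP-negative colonies and 0.05 on the iPS arrays, against 0.06 in leukemia cells. With GFP-positive array 3 and GFP-negative array 1 left out, the medians against leukemia were -0.31 and -0.24 and the counts called lower were 33 and 21. Of all genes, 16.9% and 16.8% were then called lower, more than the 12.3% and 12% with all arrays.

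**Figure D2:**
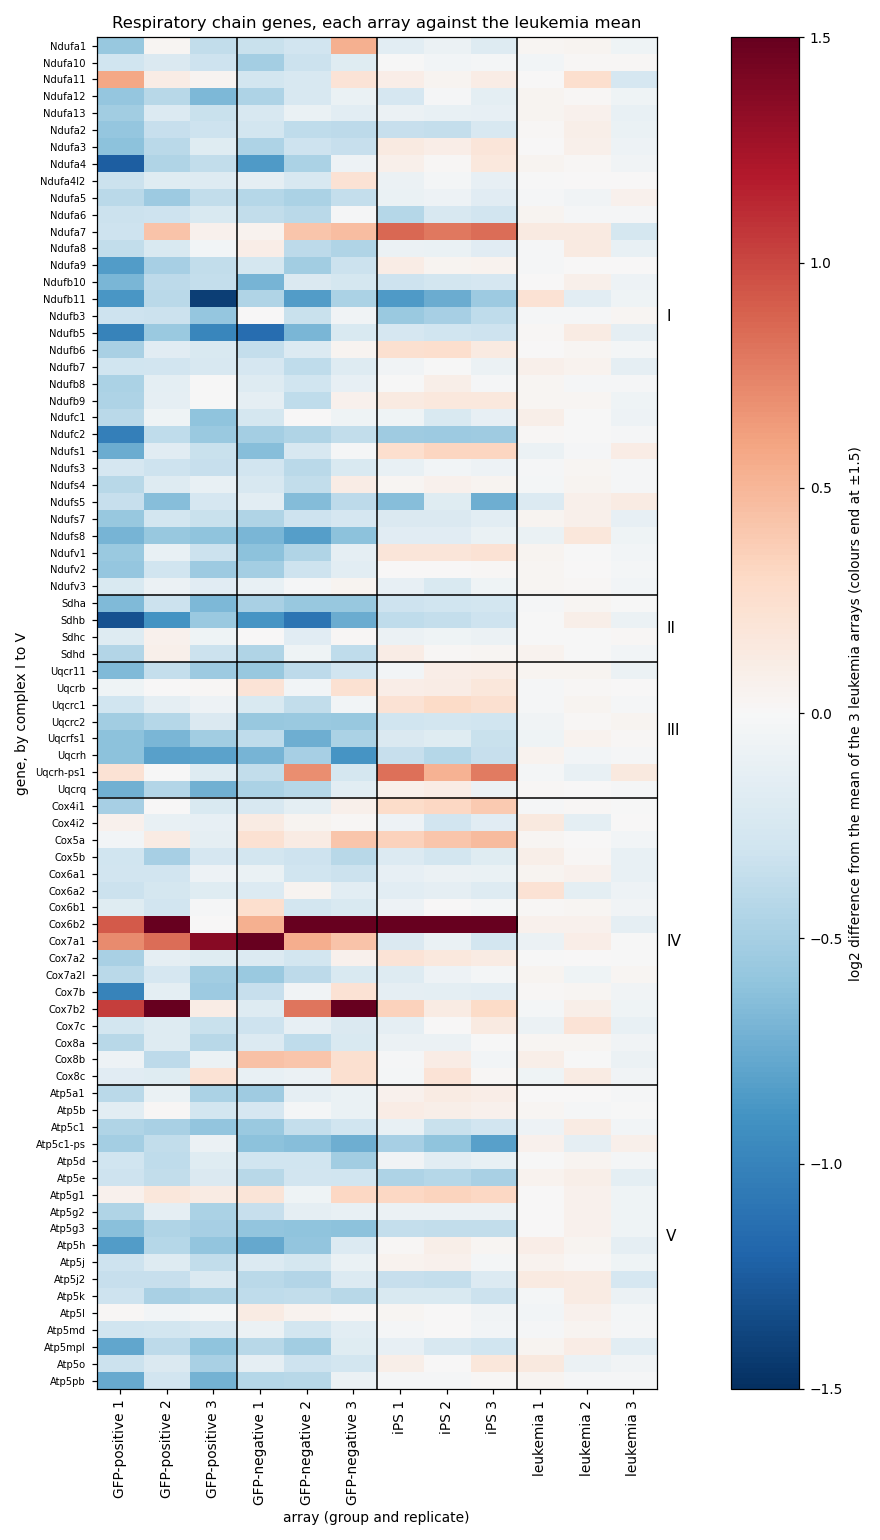
Each of the 80 genes (rows, by complex I to V) on each of the 12 arrays (columns, by group and replicate), coloured by the log2 difference from the mean of the 3 leukemia arrays, blue for lower and red for higher. The colony arrays are mostly blue across complexes I, II, III and V, while Cox6b2, Cox7a1 and Cox7b2 of complex IV are red on several of them.

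Promoters of 6 members are printed here because these genes carry the 2 patterns that follow: Uqcrh, Uqcr11, Atp5k and Atp5h fell in both kinds of colony, and Cox6b2 and Cox6b1 are isoforms of the same subunit with contrasting values. The genes were chosen after their values were seen and do not stand for all members that fell. The windows are the 250 bases before the transcription start in RefSeq (GRCm38.p6), all on the minus strand and written 5′ to 3′ along the gene. Capitals mark a core motif of NRF1 (GCGCA followed by its own reverse complement, TGCGC, a palindrome) or of GABPA (CCGGAAG, or CTTCCGG on the other strand), factors known to bind promoters of nuclear genes for respiratory chain subunits.
Uqcrh, chr4:116075071-116075320: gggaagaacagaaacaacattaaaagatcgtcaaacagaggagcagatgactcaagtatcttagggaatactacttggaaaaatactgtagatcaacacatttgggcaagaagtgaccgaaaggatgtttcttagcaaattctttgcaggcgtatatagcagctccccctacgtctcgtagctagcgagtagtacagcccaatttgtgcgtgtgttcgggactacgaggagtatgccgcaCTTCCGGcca
Uqcr11, chr10:80406822-80407071: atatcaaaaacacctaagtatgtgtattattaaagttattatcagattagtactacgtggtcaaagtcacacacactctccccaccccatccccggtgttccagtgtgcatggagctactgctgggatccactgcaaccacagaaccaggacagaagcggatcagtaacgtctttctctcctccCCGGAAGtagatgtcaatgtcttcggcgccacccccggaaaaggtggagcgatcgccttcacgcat
Atp5k, chr5:108434400-108434649: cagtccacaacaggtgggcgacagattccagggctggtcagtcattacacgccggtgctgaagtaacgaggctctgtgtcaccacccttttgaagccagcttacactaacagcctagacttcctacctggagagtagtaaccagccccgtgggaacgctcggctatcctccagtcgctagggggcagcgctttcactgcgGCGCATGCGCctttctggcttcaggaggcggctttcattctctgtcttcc
Atp5h, chr11:115419920-115420169: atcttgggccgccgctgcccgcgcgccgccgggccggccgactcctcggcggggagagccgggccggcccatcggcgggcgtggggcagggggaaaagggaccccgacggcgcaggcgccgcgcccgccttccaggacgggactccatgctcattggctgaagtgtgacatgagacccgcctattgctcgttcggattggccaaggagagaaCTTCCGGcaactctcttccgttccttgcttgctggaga
Cox6b2, chr7:4753095-4753344: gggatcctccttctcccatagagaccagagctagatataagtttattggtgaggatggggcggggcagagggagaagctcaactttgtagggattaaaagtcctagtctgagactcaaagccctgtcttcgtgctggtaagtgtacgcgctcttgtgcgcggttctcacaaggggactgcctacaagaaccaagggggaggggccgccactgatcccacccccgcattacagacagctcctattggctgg
Cox6b1, chr7:30626115-30626364: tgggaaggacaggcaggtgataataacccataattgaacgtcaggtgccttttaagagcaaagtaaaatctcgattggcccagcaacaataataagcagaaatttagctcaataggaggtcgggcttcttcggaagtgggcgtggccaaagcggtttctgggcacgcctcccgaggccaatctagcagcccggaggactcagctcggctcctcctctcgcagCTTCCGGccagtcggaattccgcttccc

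Both strands of the windows from 250 bases before to 50 after the start were searched, for 69 promoters of 64 respiratory chain genes and 32851 promoters in all. The GABPA letters were found in 17 of the 69 (24.6%), against 8.86% of all promoters, and the NRF1 letters in 5 (7.25%), against 0.971%. The letters AAGATGGC of YY1 were found in 9 (13.0%), against 2.75%, and AAGGTCA of the oestrogen-related receptors (ERR) in 6 (8.7%), against 4.72%. The median GC content was 57.3% in the members' windows, against 52.7% in all. These matches are a description of the letters, and a link between them and the falls was not tested. Every falling gene printed above has GABPA or NRF1 letters before the start. This was not so for all genes that fell in both kinds of colony. Sdhb and Ndufs8 have GABPA letters only after the start, at bases 7 to 13 and 16 to 22, and Atp5g3 has ERR letters alone. Sdha, Uqcrfs1 and Uqcrc2 are not among the genes in which a match was found. In the 6 promoters printed, the GABPA letters lie 10 to 4 bases before the start in Uqcrh, 38 to 32 bases before it in Atp5h and 28 to 22 bases before it in Cox6b1, on the other strand, and 66 to 60 bases before it in Uqcr11. Atp5k has the NRF1 letters 50 to 41 bases before the start. It also has GABPA and ERR letters at bases 13 to 19 and 24 to 30 after the start, outside the part printed. None of the 4 motifs was in the Cox6b2 window. Nrf1 and Gabpa themselves were not called in any comparison. Nrf1 differed from leukemia by -0.47 in GFP-positive colonies (adjusted p = 0.134 in limma), and Gabpa by -0.13 (adjusted p = 0.713 in limma).

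Complex I, the entry point of electrons from NADH, had 15 of 33 genes that fell in GFP-positive colonies relative to leukemia cells and 8 of 33 in GFP-negative colonies, with medians of -0.36 and -0.30. These counts are 45.5% and 24.2%, against 12.3% and 12% of all genes. Ndufs8, a core iron-sulfur subunit of the peripheral arm, read 8.58, 8.71 and 8.68 in GFP-positive colonies, 8.60, 8.45 and 8.66 in GFP-negative colonies and 9.11, 9.11 and 9.18 on the iPS arrays, against 9.18, 9.45 and 9.21 in leukemia cells. Every colony array lay below every iPS and leukemia array. The differences from leukemia were -0.62 ± 0.10 and -0.71 ± 0.10 (SE of the fit, adjusted p = 0.0016 and 0.000715 in limma), and iPS cells were higher than GFP-negative colonies by 0.56 (adjusted p = 0.0156) and than GFP-positive colonies by 0.48 (adjusted p = 0.0203). Both of these iPS calls were lost without any 1 iPS array, and the one against GFP-positive colonies also without GFP-positive array 1.

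The 3 complex I genes with the largest decreases called in GFP-positive colonies, Ndufb11, Ndufb5 and Ndufc2, encode accessory subunits of the membrane arm. Ndufb5 read 8.11, 8.55 and 8.13 in GFP-positive colonies and 7.96, 8.42 and 8.88 in GFP-negative colonies, against 9.12, 9.23 and 8.97 in leukemia cells. The groups did not overlap, although GFP-negative array 3 came close to leukemia, and the differences were -0.85 ± 0.21 and -0.69 ± 0.21 (adjusted p = 0.0142 and 0.0388 in limma). The GFP-positive call was lost without GFP-positive array 1 or leukemia array 2 (adjusted p = 0.055 and 0.058), and the GFP-negative call without any 1 of GFP-negative arrays 1 and 2, the iPS arrays and the leukemia arrays. Ndufb11, a subunit encoded on the X chromosome, read 5.46, 5.93 and 4.92 in GFP-positive colonies and 5.48, 5.59 and 5.79 in iPS cells, against 6.55, 6.18 and 6.27 in leukemia cells. It fell by 0.90 on the log2 scale in GFP-positive colonies (adjusted p = 0.0171 in limma) and by 0.71 in iPS cells (adjusted p = 0.0435). The iPS call was lost in 7 of the 12 fits that left out 1 array, the GFP-positive call in 1, without leukemia array 1. Its GFP-positive and iPS values lie near or below the median of all probe sets on their arrays (5.76 to 5.79).

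Ndufc2, another accessory subunit of the membrane arm, fell in all 3 groups. It read 10.73, 11.37 and 11.20 in GFP-positive colonies, 11.25, 11.30 and 11.39 in GFP-negative colonies and 11.22, 11.21 and 11.22 on the iPS arrays, against 11.78, 11.75 and 11.74 in leukemia cells. All 9 arrays of reprogrammed material lay below all leukemia arrays, and the log2 differences were -0.66, -0.45 and -0.54 (adjusted p = 0.00741, 0.0482 and 0.0181 in limma). Its call in iPS cells was lost without any 1 iPS or leukemia array (adjusted p = 0.052 to 0.059), and its call in GFP-negative colonies in 9 of the 12 fits that left out 1 array. Ndufb3 fell in iPS cells by 0.47 (adjusted p = 0.0137) and in GFP-positive colonies by 0.40 (adjusted p = 0.0334), calls lost in 2 and 5 of the 12 fits. Its difference in GFP-negative colonies was -0.13.

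The NADH-oxidising end of complex I holds the core subunits Ndufv1, Ndufv2 and Ndufs1. Ndufv2, an iron-sulfur subunit, fell in GFP-positive colonies by 0.48 (adjusted p = 0.0119 in limma), at 10.17, 10.45 and 10.21 against 10.78, 10.76 and 10.72 in leukemia cells, and its difference in GFP-negative colonies was -0.33 (adjusted p = 0.0651). Ndufv1, which binds NADH and flavin, read 9.38, 9.82 and 9.61 in GFP-positive colonies, 9.32, 9.48 and 9.80 in GFP-negative colonies and 10.11, 10.12 and 10.15 on the iPS arrays, against 9.98, 9.93 and 9.89 in leukemia cells. The iPS arrays were the highest and the colony arrays the lowest, with no overlap between the groups. The differences from leukemia were -0.33, -0.40 and 0.19, none of them called (adjusted p = 0.13, 0.0712 and 0.381), while iPS cells were higher than GFP-positive colonies by 0.52 (adjusted p = 0.042) and than GFP-negative colonies by 0.59 (adjusted p = 0.0439). Ndufs1, the large iron-sulfur subunit, was not called against leukemia (-0.42 in GFP-positive and -0.30 in GFP-negative colonies) and was 0.72 higher in iPS cells than in GFP-positive colonies (adjusted p = 0.0311), at 8.46, 8.53 and 8.53 against 7.46, 8.04 and 7.88. Against GFP-positive colonies the calls of Ndufs1 and Ndufv1 were lost in 8 and 9 of the 12 fits without 1 array, and against GFP-negative colonies that of Ndufv1 was lost in 8.

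Ndufa7, an accessory subunit, was one of the genes that rose in iPS cells. It read 9.09, 9.02 and 9.06 in iPS cells, against 8.36, 8.36 and 7.96 in leukemia cells, a difference of 0.83 ± 0.19 (adjusted p = 0.0091 in limma) that was called in every fit that left out 1 array. It was 0.77 higher in iPS cells than in GFP-positive colonies (adjusted p = 0.0318), where it read 7.92, 8.65 and 8.29, and this call was lost in 7 of the 12 fits that left out 1 array. The accessory subunits Ndufa9 and Ndufa3 were also higher in iPS cells than in GFP-positive colonies, by 0.64 and 0.54 (adjusted p = 0.0144 and 0.02), and Ndufa3 was higher than in GFP-negative colonies by 0.51 (adjusted p = 0.0361). Without any 1 iPS array all 3 of these calls were lost, and the last was lost in 8 of the 12 fits. In all, iPS cells had 10 of 33 complex I genes called higher than GFP-positive colonies (30.3%, against 6.15% of all genes). Against GFP-negative colonies, 3 of 33 were called higher (9.09%, against 2.94% of all genes).

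Complex II oxidises succinate and is also an enzyme of the tricarboxylic acid cycle. Its catalytic subunits, Sdha and Sdhb, were called lower in both kinds of colony, and its anchoring subunits were not called against leukemia. Sdhb, the iron-sulfur subunit, read 8.68, 9.09 and 9.43 in GFP-positive colonies, 9.10, 8.89 and 9.24 in GFP-negative colonies and 9.61, 9.63 and 9.68 on the iPS arrays, against 9.98, 10.08 and 9.90 in leukemia cells. Colonies, iPS cells and leukemia cells formed 3 levels without overlap. The level of Sdhb in GFP-positive colonies was 0.529-fold that in leukemia cells, a log2 difference of -0.92 ± 0.17 (adjusted p = 0.00307 in limma), and in GFP-negative colonies the difference was -0.91 ± 0.17 (adjusted p = 0.00332). In iPS cells it was -0.34, which was not called (adjusted p = 0.186).

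Sdha, the flavoprotein that holds the succinate site, fell as well, with 9.69, 10.03 and 9.68 in GFP-positive colonies and 9.86, 9.78 and 9.78 in GFP-negative colonies, against 10.33, 10.38 and 10.34 in leukemia cells. The differences were -0.55 ± 0.11 and -0.54 ± 0.11 (adjusted p = 0.00375 and 0.00407 in limma), and the calls of Sdha and Sdhb against leukemia were made in every fit that left out 1 array. The membrane anchors did not pass the test: Sdhc differed from leukemia by -0.06 in GFP-positive and -0.04 in GFP-negative colonies, with overlapping arrays, and Sdhd by -0.24 and -0.30 (adjusted p = 0.292 and 0.18). In GFP-negative colonies the arrays of 3 of the 4 complex II genes, all but Sdhc, lay below all leukemia arrays, which was so for 20.9% of all genes. Whether the catalytic subunits differed from the anchors in their change was not tested.

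**Figure D3:**
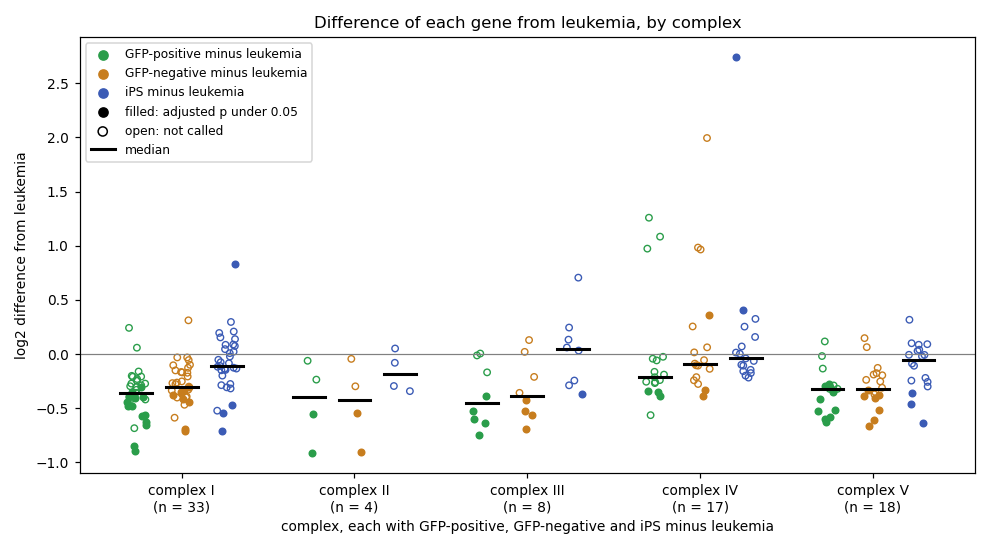
Log2 difference of each gene from leukemia cells (vertical axis) by complex (horizontal axis), in GFP-positive colonies (green), GFP-negative colonies (orange) and iPS cells (blue). Filled points are genes called at an adjusted p under 0.05, open points are genes not called, and black bars are medians, which lay at -0.36, -0.39, -0.45, -0.21 and -0.32 for complexes I to V in GFP-positive colonies.

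Complex III, which passes electrons from ubiquinol to cytochrome c, had 5 of 8 genes called lower in GFP-positive colonies and 4 of 8 in GFP-negative colonies. These counts are 62.5% and 50%, against 12.3% and 12% of all genes. Uqcrh, the hinge protein at the cytochrome c1 docking site, read 7.95, 7.75 and 7.76 in GFP-positive colonies, 7.87, 8.07 and 7.68 in GFP-negative colonies and 8.22, 8.14 and 8.22 on the iPS arrays, against 8.62, 8.53 and 8.55 in leukemia cells. Leukemia arrays were the highest, iPS arrays next and colony arrays the lowest. The differences from leukemia were -0.74 ± 0.11, -0.69 ± 0.11 and -0.37 ± 0.11 (adjusted p = 0.000933, 0.00148 and 0.0368 in limma), and the iPS call was lost without any 1 iPS or leukemia array.

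Uqcrfs1, the Rieske iron-sulfur protein, fell in both kinds of colony, by 0.60 and 0.53 (adjusted p = 0.00262 and 0.00566 in limma), with 7.68, 7.61 and 7.77 in GFP-positive and 7.91, 7.56 and 7.81 in GFP-negative colonies, against 8.22, 8.34 and 8.31 in leukemia cells. Uqcrc1, a core protein of the matrix side, was not called against leukemia, at -0.17 and -0.21. It was higher in iPS cells, at 11.61, 11.68 and 11.63, than in GFP-positive colonies, at 11.09, 11.26 and 11.32, by 0.41 (adjusted p = 0.0349), and than in GFP-negative colonies by 0.46 (adjusted p = 0.0399). The small subunit Uqcrq was 0.66 higher in iPS cells than in GFP-positive colonies (adjusted p = 0.0103), and Uqcr11 0.48 higher than in GFP-negative colonies (adjusted p = 0.0419). Uqcr11 fell in GFP-positive colonies relative to leukemia by 0.52 (adjusted p = 0.00739) and in GFP-negative colonies by 0.42 (adjusted p = 0.0226), and its promoter is among those printed above. Both Uqcrc1 calls and the Uqcr11 call against GFP-negative colonies were lost in 8 of the 12 fits without 1 array, the Uqcrq call in 1 (without iPS array 2), and the Uqcr11 call of GFP-negative colonies against leukemia in 3.

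Complex V had 11 of 18 genes called lower in GFP-positive colonies and 7 of 18 in GFP-negative colonies (61.1% and 38.9%, against 12.3% and 12% of all genes). The 18 and the 7 include the pseudogene Atp5c1-ps. The c-ring, the rotor through which protons pass, is made from 3 genes that encode the same mature protein. Atp5g3 read 9.16, 9.33 and 9.29 in GFP-positive colonies, 9.19, 9.18 and 9.17 in GFP-negative colonies and 9.43, 9.42 and 9.42 on the iPS arrays, against 9.79, 9.85 and 9.72 in leukemia cells. The leukemia arrays were above all others and the iPS arrays above all colony arrays. It fell in all 3 groups, by 0.52 ± 0.09, 0.61 ± 0.09 and 0.36 ± 0.09 on the log2 scale (adjusted p = 0.00141, 0.000563 and 0.0107 in limma), and kept each call in every fit that left out 1 array. Atp5g2 fell in GFP-positive colonies by 0.35 (adjusted p = 0.0485), a call lost in 9 of 12 such fits, and differed by -0.20 in GFP-negative colonies and -0.09 on the iPS arrays. Atp5g1 was not called, at 0.12, 0.15 and 0.32 (adjusted p = 0.503, 0.381 and 0.0548).

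**Figure D4:**
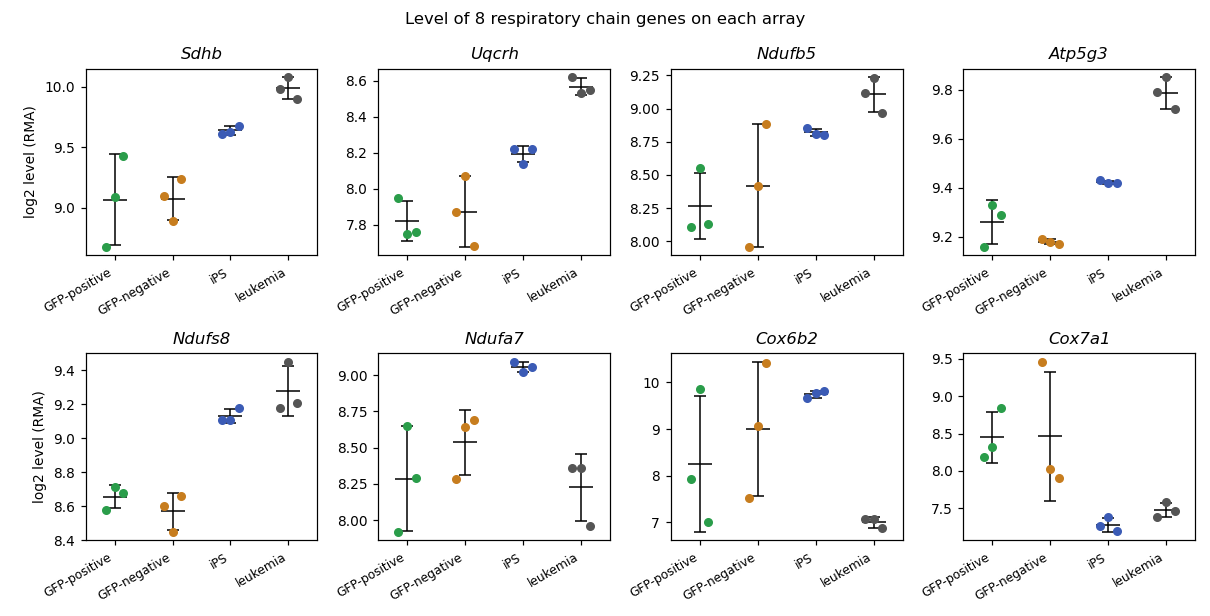
Log2 level of 8 genes (vertical axes, each with its own range) on the 3 arrays of each group (points), with the mean and SD in black. Sdhb, Uqcrh, Ndufb5, Atp5g3 and Ndufs8 are lower on every colony array than on every leukemia array, Ndufa7 is highest in iPS cells, and Cox6b2 and Cox7a1 spread widely among colony arrays.

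Of the rotating core and catalytic head, Atp5c1, the central gamma shaft, fell in GFP-positive colonies by 0.51 and in GFP-negative colonies by 0.40 (adjusted p = 0.00699 and 0.0247 in limma). It read 6.79, 6.76 and 6.65 in GFP-positive and 6.69, 6.89 and 6.95 in GFP-negative colonies, against 7.17, 7.37 and 7.20 in leukemia cells. The GFP-negative call was lost without GFP-negative array 1, leukemia array 2 or leukemia array 3 (adjusted p = 0.06, 0.101 and 0.057). The pseudogene Atp5c1-ps, read at a low level, fell in GFP-negative colonies and iPS cells by 0.66 and 0.64 (adjusted p = 0.00448 and 0.00479), at a probe set that could share signal with Atp5c1. Atp5b, the catalytic beta subunit, was not called in any comparison, at -0.13, -0.13 and 0.09 from leukemia. Atp5h, the d subunit of the stalk that holds the head still, was 0.66 higher in iPS cells, at 11.26, 11.33 and 11.27, than in GFP-positive colonies, at 10.40, 10.82 and 10.65 (adjusted p = 0.0258), a call lost in 5 of the 12 fits, and its falls of 0.62 and 0.52 relative to leukemia in GFP-positive and GFP-negative colonies were lost in 3 and 8. Its second probe set gave 1.06 for the same difference. Atp5e, the epsilon subunit, fell in iPS cells by 0.46 (adjusted p = 0.00552), but its second, dimmer probe set gave 0.07, and the mean of both was -0.19 (adjusted p = 0.234). A second probe set was measured for 9 of the 80 genes, and its difference from leukemia had the opposite sign for 2 genes in GFP-positive colonies (Ndufa8 and Ndufa11), 2 in GFP-negative colonies (Ndufa8 and Atp5d) and 4 in iPS cells. Whether signal from processed pseudogenes adds to other probe sets was not tested.

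Complex IV had 3 of 17 genes called lower in GFP-positive colonies (17.6%, against 12.3% of all genes). In GFP-negative colonies 2 of 17 were called lower (11.8%, against 12% of all genes), and both shares were below those of the other complexes. The difference between complexes was not tested. The 17 include the isoforms of restricted use Cox4i2, Cox6a2, Cox6b2, Cox7a1, Cox7b2, Cox8b and Cox8c, some of them at low levels. None of these isoforms was called lower in colonies, so that they reduce both shares. The lower calls were Cox5b and Cox7a2l in both kinds of colony and Cox8a in GFP-positive colonies. Cox4i1, a core nuclear subunit, was not called against leukemia (-0.24, -0.10 and 0.32) and was 0.56 higher in iPS cells than in GFP-positive colonies (adjusted p = 0.0262), at 12.37, 12.41 and 12.49 against 11.60, 12.10 and 11.87. Cox5a rose in iPS cells by 0.41 over leukemia cells (adjusted p = 0.0174), at 11.31, 11.38 and 11.43 against 10.99, 10.97 and 10.92, and was 0.44 higher than in GFP-positive colonies (adjusted p = 0.0311). Cox7a2 was 0.43 higher in iPS cells than in GFP-positive colonies (adjusted p = 0.0491). Each of these calls was lost without some single arrays: Cox5a against leukemia without iPS array 2 or 3 or leukemia array 2 or 3 (adjusted p = 0.052 to 0.068), Cox4i1 without any 1 iPS array or GFP-positive array 1 or 3, and Cox5a and Cox7a2 against GFP-positive colonies in 8 and 9 of the 12 fits without 1 array.

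The complex IV isoforms of restricted use varied among themselves. Cox6b2, known as the testis form of subunit VIb, read 7.92, 9.86 and 7.00 in GFP-positive colonies, 7.53, 9.06 and 10.41 in GFP-negative colonies and 9.66, 9.77 and 9.81 on the iPS arrays, against 7.07, 7.06 and 6.87 in leukemia cells. The iPS arrays were uniformly high and the leukemia arrays uniformly low, and the colony arrays spanned the range between and beyond. Cox6b2 rose 6.69-fold in iPS cells over leukemia cells, a log2 difference of 2.74 ± 0.74 (adjusted p = 0.0204 in limma), the highest difference from leukemia among the 80 genes, and the call was lost without any 1 iPS or leukemia array (adjusted p = 0.056 to 0.065). In colonies the differences were 1.26 and 2.0, which were not called (adjusted p = 0.274 and 0.0836). The pluripotency marker means were 8.18, 9.58 and 6.83 on GFP-positive arrays 1, 2 and 3, and 6.08, 9.42 and 9.81 on GFP-negative arrays 1, 2 and 3, so that Cox6b2 and the markers had the same order within each kind of colony. The part of pluripotent cells in this difference was not tested. The widely used form, Cox6b1, differed from leukemia by -0.16, -0.09 and -0.04, and its arrays overlapped with leukemia in each group.

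Cox7a1, the form of subunit VIIa used in heart and skeletal muscle, was higher on every colony array, at 8.19, 8.32 and 8.84 in GFP-positive and 9.46, 8.02 and 7.91 in GFP-negative colonies, against 7.39, 7.58 and 7.47 in leukemia cells. The differences of 0.97 and 0.98 did not pass the test (adjusted p = 0.0692 and 0.0682 in limma), and iPS cells, at 7.26, 7.38 and 7.20, differed from leukemia by -0.20. The mean of 6 muscle markers was between 5.22 and 5.28 on GFP-positive arrays and between 5.23 and 5.32 on GFP-negative arrays, against 5.16 to 5.26 in leukemia cells. The highest Cox7a1 value of each kind of colony was on GFP-positive array 3 and GFP-negative array 1, the arrays that stood apart. The epithelial marker means were 11.66, 11.34 and 11.31 on GFP-positive arrays 1, 2 and 3 and 12.04, 10.83 and 8.52 on GFP-negative arrays 1, 2 and 3, so that within GFP-negative colonies, but not GFP-positive colonies, they had the order of Cox7a1. Their part in this difference was not tested. Cox7b2 read 4.16, 5.22 and 3.23 in GFP-positive and 2.93, 3.92 and 5.41 in GFP-negative colonies, against 3.09, 3.21 and 3.06 in leukemia cells, with differences of 1.08 and 0.97 that were not called. Cox8b, the heart and muscle form of subunit VIII, was the one gene that rose in GFP-negative colonies, by 0.36 (adjusted p = 0.0478), at a level of 5.22, 5.20 and 5.02 against 4.87, 4.78 and 4.70. That call was lost in 9 of the 12 fits without 1 array. With a minimum mean of 5 no member was called higher, against 12.5% of all genes kept. The Cox7b2 and Cox8b values given here all lie below the median of all probe sets on their arrays (5.76 to 5.82).

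The other restricted forms, Cox4i2, Cox6a2, Cox8c and Ndufa4l2, were not called in any comparison, and their differences from leukemia lay between -0.26 and 0.07. Among the widely used forms, Cox8a fell in GFP-positive colonies by 0.34 (adjusted p = 0.0286), a call lost without GFP-positive array 1 or 3 or any 1 leukemia array. Cox7b and Ndufa4 were not called in GFP-positive colonies, at -0.56 and -0.68 (adjusted p = 0.0666 and 0.0625), and GFP-positive array 1 gave their lowest values, 10.98 and 10.05. Ndufa4 is grouped with complex I by its symbol, although its protein is known as a subunit of complex IV. Cox6a1 differed by -0.21, -0.24 and -0.11 from leukemia and was not called.

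Genes that build or feed the chain were read from lists alongside it. Counts against leukemia in these lists stand beside the shares of all genes called, for the GFP-positive, GFP-negative and iPS groups in turn. These were 12.3%, 12% and 11.9% lower and 9.60%, 9.02% and 12.4% higher. With 1 array left out, the shares called lower ranged from 8.6% to 15.9%, 8.54% to 14.2% and 8.67% to 14.8%. Those called higher ranged from 6.73% to 13.5%, 6.17% to 13% and 8.92% to 16.1%. Of 4 further chain genes outside the symbol families, Cycs, which encodes cytochrome c, fell in both kinds of colony (GFP-positive, then GFP-negative) and in iPS cells by 0.63, 0.46 and 0.31 (adjusted p = 0.000901, 0.00609 and 0.0353 in limma, the last lost without any 1 iPS or leukemia array), and Ndufab1, the acyl carrier subunit of complex I, fell in the 2 kinds of colony by 0.49 and 0.51 (adjusted p = 0.0163 and 0.0132). Cyc1 and Atpif1 were not called. Of 41 assembly factors, 8 fell and 2 rose in GFP-positive colonies, 6 fell and 3 rose in GFP-negative colonies, and 2 fell and 2 rose in iPS cells, all against leukemia. The shares called lower were 19.5%, 14.6% and 4.88% and those called higher 4.88%, 7.32% and 4.88%, so that most of these shares lay near or below those of all genes. The count of 8 was 4 without any 1 leukemia array and 5 without GFP-positive array 1 or any 1 iPS array, and the count of 6 was 3 without any 1 leukemia array. Ndufaf4, which assists complex I assembly, fell by 1.07 in GFP-positive colonies (adjusted p = 0.000722), at 8.10, 8.55 and 7.99 against 9.36, 9.23 and 9.26 in leukemia cells, and was 1.10 higher in iPS cells than in GFP-positive colonies (adjusted p = 0.00408). Cox20, which helps insert a core subunit of complex IV, fell by 0.89 in GFP-positive colonies (adjusted p = 0.0183, lost in 4 of the 12 fits without 1 array) and by 1.74 in iPS cells (adjusted p = 0.000297).

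Mitochondrial ribosomal proteins, which translate the mitochondrially encoded subunits, had 21 of 71 genes called lower and 1 called higher for GFP-positive colonies minus leukemia, with a median of -0.25, and the 21 became 13 and 12 without leukemia arrays 1 and 2. In GFP-negative colonies the counts were 14 lower and 1 higher, with a median of -0.13, and the 14 became 8 without GFP-negative array 1 and 7, 7 and 8 without leukemia arrays 1, 2 and 3. In iPS cells 10 rose and 5 fell relative to leukemia, with a median of 0.20, and 21 rose and 0 fell relative to GFP-positive colonies, with a median of 0.46. The 10 are 14.1% of the list, against 12.4% of all genes. They became 3 to 5 without any 1 iPS or leukemia array (8.92% to 9.17% of all genes). Without GFP-negative array 1 they became 19 (16.1% of all genes). The 21 are 29.6%, against 6.15% of all genes. They became 5, 32 and 6 without GFP-positive arrays 1, 2 and 3, where 2.52%, 8.99% and 3.46% of all genes were called higher. Without any 1 iPS array they became 3 to 4 (1.83% to 1.88% of all genes). They became 11 to 12 without any 1 leukemia array (4% to 4.08%) and 40 without GFP-negative array 1 (12.2%). The count in the list and the share of all genes moved together in these fits. Of 18 regulators of mitochondrial biogenesis, 0 rose, while 5 fell in GFP-positive colonies, 4 in the GFP-negative ones and 3 in iPS cells (27.8%, 22.2% and 16.7%). The 5 became 3 without GFP-positive array 1 or 3 or leukemia array 1 or 2, 2 without leukemia array 3 and 8 without GFP-negative array 1. Polg2, the accessory subunit of the mitochondrial DNA polymerase, fell by 1.36, 1.29 and 1.31 (adjusted p = 0.00285, 0.00402 and 0.00316 in limma), and the coactivator Ppargc1b by 1.14, 1.02 and 1.37 (adjusted p = 0.00282, 0.00542 and 0.000773).

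Of 13 tricarboxylic acid cycle genes, 6 fell and 0 rose in GFP-positive colonies, 4 fell and 0 rose in GFP-negative colonies, and 3 fell and 1 rose in iPS cells. The 4 became 2 without leukemia array 3, and the 1 became 0 without iPS array 1 or 2 or any 1 leukemia array. In GFP-positive colonies Suclg2 and Idh3a fell by 0.75 and 0.73 (adjusted p = 0.0192 and 0.0109 in limma), and the Suclg2 call was lost in 5 of the 12 fits without 1 array. Ogdh fell by 0.66 in GFP-negative colonies (adjusted p = 0.00141) and by 0.79 in iPS cells (adjusted p = 0.000398). Of 11 genes for pyruvate entry into mitochondria, 2, 2 and 3 fell in the same groups and 1 rose in each, and Pdp1, a phosphatase that activates pyruvate dehydrogenase, fell by 0.85 in GFP-positive colonies (adjusted p = 0.00201). Of 9 carriers, porins and uncoupling proteins, 1, 0 and 0 fell and 0, 0 and 1 rose. With 1 array left out, the counts of these 2 lists moved between 0 and 3.

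Of 13 glycolysis genes, 5 rose and 0 fell in GFP-positive colonies, 6 rose and 1 fell in GFP-negative colonies, and 5 rose and 1 fell in iPS cells. The 5 in GFP-positive colonies became 3 without GFP-positive array 1 or 2, GFP-negative array 2, or any 1 iPS or leukemia array. The glucose transporter Slc2a1 read 12.14, 12.34 and 11.06 in GFP-positive colonies, 12.35, 12.69 and 12.28 in GFP-negative colonies and 12.10, 12.08 and 12.12 on the iPS arrays, against 9.41, 9.61 and 9.65 in leukemia cells. It rose by 2.30, 2.88 and 2.54 (adjusted p = 0.000184, 3.44e-05 and 7.46e-05 in limma). The transporter Slc2a3 rose by 1.61, 2.50 and 2.92 (adjusted p = 0.0364, 0.00402 and 0.00134), with GFP-positive array 3 at 8.33, close to the leukemia arrays. Its call in GFP-positive colonies was lost in 9 of the 12 fits without 1 array.

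**Figure D5:**
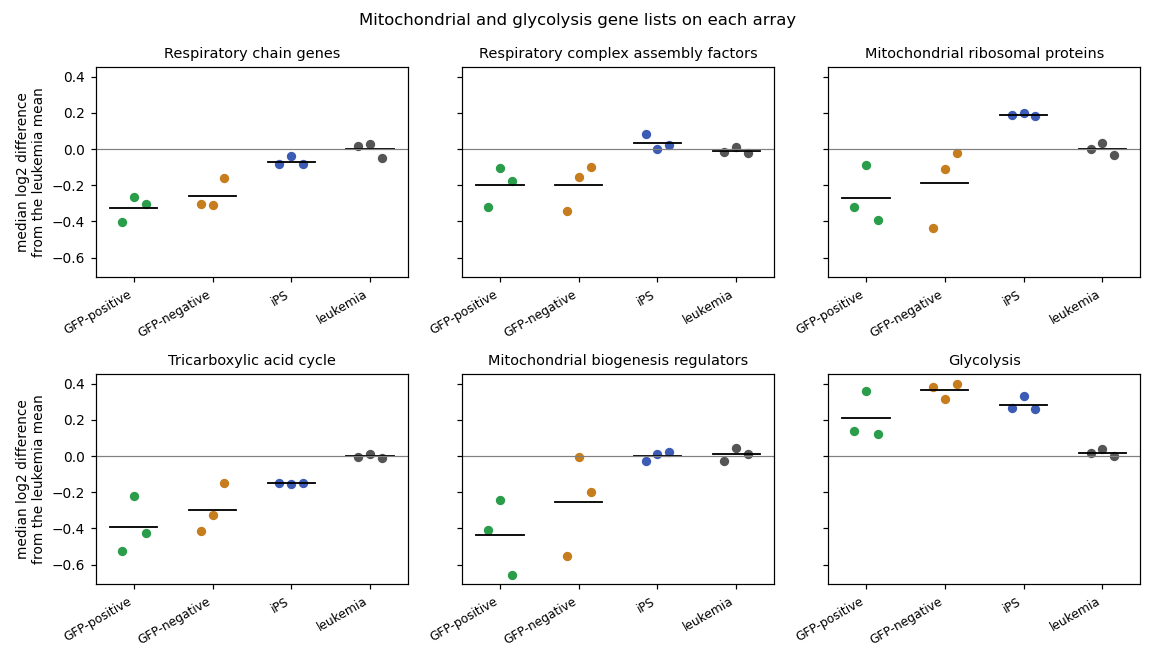
Median log2 difference from the leukemia mean on each array (points) for 6 gene lists, with the mean of the 3 arrays of a group as a bar. Respiratory chain genes lie at -0.41 to -0.16 on the colony arrays and -0.08 to -0.04 on iPS arrays, mitochondrial ribosomal proteins are above leukemia in iPS cells, and glycolysis genes are above leukemia on all 9 arrays of colonies and iPS cells.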

How the data were processed

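The 12 arrays measured total RNA extracted with Trizol and labelled with biotin, per the labels' protocols. The deposited values are log2 and come from RMA, which corrects background, quantile-normalizes the arrays and summarises the probes of each set, as listed in the submitters' processing notes; its software version was not given in the sources used here. This scaling removes a change shared by most genes. The table held 41345 probe sets, of which 23521 with 1 gene symbol were used. No detection values were used, and precision is limited by how many arrays there are.

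The brightest probe set stood for each gene. limma 3.58.1 in R 4.3.3 fitted 1 mean per group to all 22180 genes on 12 arrays, with empirical Bayes moderation, and genes with a Benjamini-Hochberg adjusted p under 0.05, taken over all genes, were called. The script was tested on simulated data. Differences are given on the log2 scale, with standard errors from the fit. The members and lists were chosen with earlier results of these data known, and no test was run over a list. Named members were the 5 largest increases and decreases called per comparison, core subunits and isoforms, and from other lists the 2 genes called with the largest differences; others were named after their values were seen. Same-numbered arrays of different groups did not deviate together in a uniform way: of 18 correlations between them, from -0.38 to 0.32, 2 were over 0.1 and 1 was under -0.1. All of these were between GFP-negative and GFP-positive colonies, at 0.17, 0.32 and -0.38 for replicates 1, 2 and 3. As they were of both signs, the numbers were not used to pair arrays in the main fit. Promoter sequences are from RefSeq (GRCm38.p6). Alternatives were cyclic loess, filters on low means, the mean of probe sets, array weights, each pair of groups alone, a replicate block and each array left out.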

Additional observations from a re-analysis of the deposited data

How the results depend on the processing

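The median difference of the respiratory chain genes kept its sign in the 5 comparisons with iPS or leukemia cells under every alternative, while counts of calls moved. Leaving out each array in turn gave 18 to 41 lower and 0 to 1 higher for GFP-positive colonies minus leukemia (36 and 0 with all arrays), 9 to 26 lower and 0 to 2 higher for GFP-negative colonies minus leukemia, and 3 to 10 lower and 1 to 5 higher for iPS minus leukemia. It gave 0 to 28 higher and 0 to 1 lower for iPS minus GFP-positive, and 0 to 10 higher and 0 to 1 lower for iPS minus GFP-negative. Of the named calls, 7 of 11, 7 of 10, 4 of 9, 0 of 10 and 0 of 5 were made in every such fit, in that order of comparisons, and 0 reversed. With cyclic loess the counts lower and higher were 18 and 1 for GFP-positive minus leukemia and 15 and 2 for GFP-negative minus leukemia, 5 were higher for iPS minus leukemia, 7 higher and 1 lower for iPS minus GFP-positive and 1 higher for iPS minus GFP-negative. Of all genes, cyclic loess called 9.15% and 9.83% lower and 12.2% and 11.3% higher in the 2 colony comparisons with leukemia. It called 14.2% higher for iPS minus leukemia, 4.77% higher and 5.1% lower for iPS minus GFP-positive and 2.51% higher for iPS minus GFP-negative. The share of higher among all genes called was then 57.1%, 53.4% and 48.3% for GFP-positive minus leukemia, GFP-negative minus leukemia and iPS minus GFP-positive, against 43.9%, 43% and 59.2% in the deposited scaling. With array weights the counts lower and higher were 56 and 3, 47 and 5, and 21 and 9 for the 3 comparisons with leukemia, 2 and 42 for iPS minus GFP-positive, 2 and 30 for iPS minus GFP-negative, and 2 were higher for GFP-negative minus GFP-positive. Of all genes, array weights called 19.5%, 20% and 23.8% lower and 17.4%, 19.1% and 23.7% higher in the comparisons with leukemia. In those of iPS with GFP-positive and GFP-negative colonies they called 17.6% and 11.2% higher and 13.9% and 8.59% lower. Fits of 2 groups alone gave 21 and 1, 10 and 0, 17 and 11, 1 and 11, and for iPS minus GFP-negative 0 higher. Of all genes, they called 12.1% lower and 10.6% higher for GFP-positive minus leukemia, and 8.73% and 6.15% for GFP-negative minus leukemia. For iPS minus GFP-positive 6.2% were lower and 6.54% higher, and for iPS minus GFP-negative 0.649% were higher. For iPS minus leukemia, 22.9% of all genes were then called lower and 24.5% higher, so that the 17 and 11 of 80 were no larger shares. The replicate block gave 13 lower and 0 higher for GFP-negative minus leukemia, 12 higher for iPS minus GFP-positive and 1 higher for iPS minus GFP-negative. Of all genes it called 11.1% lower and 8.67% higher, 5.14% higher and 2.3% higher in the same comparisons. A minimum mean of 5 gave 0 higher for GFP-negative minus leukemia and 1 lower for iPS minus GFP-positive. Of all genes kept, 12.5% and 6.49% were so called. A minimum of 8, added after seeing the data, gave 0 higher for GFP-negative minus leukemia, against 18.5% of all genes kept. Without GFP-positive array 3 and GFP-negative array 1, also added, 3 were higher in each kind of colony than in leukemia, iPS minus leukemia had 5 higher and 11 lower, and 2 and 1 were lower for iPS minus GFP-positive and iPS minus GFP-negative. Of all genes, 15.7% and 16.1% were then higher in GFP-positive and GFP-negative colonies than in leukemia cells. For iPS minus leukemia 18.9% were higher and 17.4% lower, and 9.29% and 4.17% were lower for iPS minus GFP-positive and iPS minus GFP-negative. The causes of these shifts were not tested.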
